A study of Mus musculus with 26 samples.

Results

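The AP-1 family was represented by 10 genes, taken as a named list: the Fos genes Fos, Fosb and Fosl2, the Jun genes Jun, Junb and Jund, the Batf genes Batf and Batf3, and the related Atf3 and Maff. They were 10 of the 35865 annotated genes that the transcripts were summed to. Fos (chr12:85473890-85477273) and Batf (chr12:85686669-85709087, both GRCm38, plus strand) lie near each other on chromosome 12. The list was set by name, with no threshold on a measured value.

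The study followed TCRTg101 cells, CD8+ T cells that carry 1 transgenic receptor specific for a natural antigen of C1498, a transplantable C57BL/6 leukemia cell line. Naive cells from Tg101 mice on a Rag2-/- background were given by adoptive transfer to mice challenged with C1498 cells by vein, and were sorted back from liver and spleen at set days. RNA was sequenced in 15 libraries, each from the sorted cells of the day and organ on its label, and all labelled C57BL/6, 6 week old and wild type. Each group was sorted by flow cytometry, so the transgenic donor, the clonal receptor and the sort were shared by all groups, controls included.

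The control group held 3 spleen libraries without leukemia, of which controls 1 and 2 were naive cells at day 0 and control 3 came from untreated mice at day 18. The undivided group was 1 library of cells that had kept their CellTrace Violet label (CTVhi) in leukemia-bearing mice, taken from spleen at day 18. Early spleen was 2 libraries at day 7, and mid spleen was 1 library at day 14. Early liver was 2 libraries at day 7. Mid liver was 3 libraries, at day 13 for libraries 1 and 2 and day 14 for library 3. Late liver was 2 libraries, at day 18 for library 1 and day 16 for library 2. The remaining library was of naive spleen cells with oligo-dT priming, which was left out of every comparison. Sample titles fell into a TG series (control 1, mid liver 1, late liver 1 and the oligo-dT library) and an XC series (all others), and spleen libraries of leukemia-bearing mice occurred in the XC series only. All controls came from spleen, so liver against control set organ and leukemia exposure together and these cannot be told apart. Controls 1 and 2, among them the only TG control, were from day 0. Against these 2 controls the day differed as well, and cannot be told apart either. Whether libraries of a group came from separate animals was not given in the sources used here, so p-values measure the spread between libraries.

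AP-1 is a dimer of leucine zipper proteins. Fos proteins cannot pair with each other and bind DNA as partners of a Jun protein, whereas Jun proteins can also pair among themselves. Fos and Jun are induced within minutes of T cell receptor or stress signalling and cooperate with NFAT at cytokine genes. BATF and BATF3 lack a transactivation domain, pair with Jun proteins, and bind composite sites together with IRF4 or IRF8. BATF is known in CD8+ T cells for its part in effector differentiation and in the response to chronic antigen.

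Promoter sequence was read for the 5 members that passed the test in mid and late liver, because 4 of them fell together while Batf rose. The sequences are from RefSeq (GRCm38.p6), on the strand of the gene, and each lies upstream of the annotated start with no exon base included. All 10 members had an entry. Capitals mark TGACG, the core bound by CREB and ATF proteins, on either strand, and in Jun the element TGACATCA.
Fos, chr12:85473740-85473889, plus strand: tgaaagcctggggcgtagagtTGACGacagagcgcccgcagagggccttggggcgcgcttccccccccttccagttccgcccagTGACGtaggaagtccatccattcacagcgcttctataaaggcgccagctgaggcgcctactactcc
Fosb, chr7:19310052-19310201, minus strand: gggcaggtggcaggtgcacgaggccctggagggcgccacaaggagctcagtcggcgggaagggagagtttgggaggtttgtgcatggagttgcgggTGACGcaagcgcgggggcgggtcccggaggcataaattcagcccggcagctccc
Jun, chr4:95052223-95052372, minus strand: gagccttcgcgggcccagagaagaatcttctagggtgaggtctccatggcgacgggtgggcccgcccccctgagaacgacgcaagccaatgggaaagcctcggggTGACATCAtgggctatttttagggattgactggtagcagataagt
Junb, chr8:84978749-84978898, minus strand: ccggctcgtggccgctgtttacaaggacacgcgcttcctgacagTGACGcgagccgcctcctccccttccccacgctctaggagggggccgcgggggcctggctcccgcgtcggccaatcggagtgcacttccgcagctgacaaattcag
Batf, chr12:85686519-85686668, plus strand: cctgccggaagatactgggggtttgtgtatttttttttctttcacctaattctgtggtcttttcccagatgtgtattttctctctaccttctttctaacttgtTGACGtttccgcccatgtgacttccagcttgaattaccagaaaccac
The stretch for Fos held 2 copies of TGACG and those for Fosb, Junb and Batf held 1 each, so the core was present in members that fell and in the member that rose. In windows of 300 bases around the start, TGACG on either strand was found in 6 of the 10 members (Fos, Fosb, Junb, Batf, Atf3 and Maff) and in 23.0% of all genes with a promoter entry. The full TGACGTCA, which contains TGACG, was found in Maff alone among members and in 2.03% of genes. TGACATCA was found in Jun and Maff and in 4.18% of genes. The AP-1 element TGANTCA was found in 0 of the 10 members and in 8.97% of genes, which says only that these letters were not in these windows.

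The low-input libraries held 22918996 to 71358287 estimated counts (median 34349318). The 10 T cell markers listed, among them Cd3e, Cd8b1 and Trac, had counts in every library and summed to 5313 to 11197 CPM, where CPM is the count normalised to library size with TMM scaling. Counts from other cells differed between groups. Controls 1 and 2 had 1579 and 1420 CPM summed over 8 dendritic cell markers, against 13.4 to 89.9 CPM in the other low-input libraries. They also had 537 and 109 CPM over 8 macrophage and monocyte markers, against 4.96 to 51.1 elsewhere, and 5236 and 20352 CPM over 6 erythroid markers, against 1.18 to 215 elsewhere. Hepatocyte markers (8 genes) summed to 3.29 to 336 CPM in liver libraries, with Alb highest at 132 CPM in late liver 1. In controls they summed to 1.92 to 319.8 CPM, and the highest of these, control 1, was nearly all Trf (319 CPM). CD4 T cell and NK cell markers stayed at 0.75 to 9.62 CPM and B cell markers at 14.5 to 49.6 CPM. The part of these cells in the member results was not tested, beyond leaving libraries out.

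Fos, Jun, Fosb and Junb were lower, and Batf was higher, in mid and late liver together than in control. On the log2 scale and with a term for the series, Fos fell by 3.92 (SE 0.90, edgeR quasi-likelihood test, Benjamini-Hochberg adjusted p = 0.0124) and Jun fell by 3.15 (SE 0.75, adjusted p = 0.0139). Fosb fell by 2.09 (SE 0.59, adjusted p = 0.0237) and Junb fell by 1.22 (SE 0.38, adjusted p = 0.0301). Batf rose by 0.87 (SE 0.17, adjusted p = 0.00723). These were 5 of the 9 members with enough counts to test, 4 lower and 1 higher, where 47.3% of all 14600 genes tested passed, 23.8% lower and 23.5% higher. The median log2 change was -1.22 over the 9 members and -0.05 over all genes tested. Without control 1, the only TG control, 0 members passed by edgeR (adjusted p 0.0574 for Batf and 0.0590 for Fos), and 6 of all genes did. Without mid liver 1, 3 of the 9 members passed, beside 5505 of the 14600 genes. Leaving out late liver 1 leaves 1 late liver library, and fewer members and fewer genes passed there than with all libraries. In bulk libraries less RNA per cell and fewer cells that hold it cannot be told apart.

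**Figure D1:**
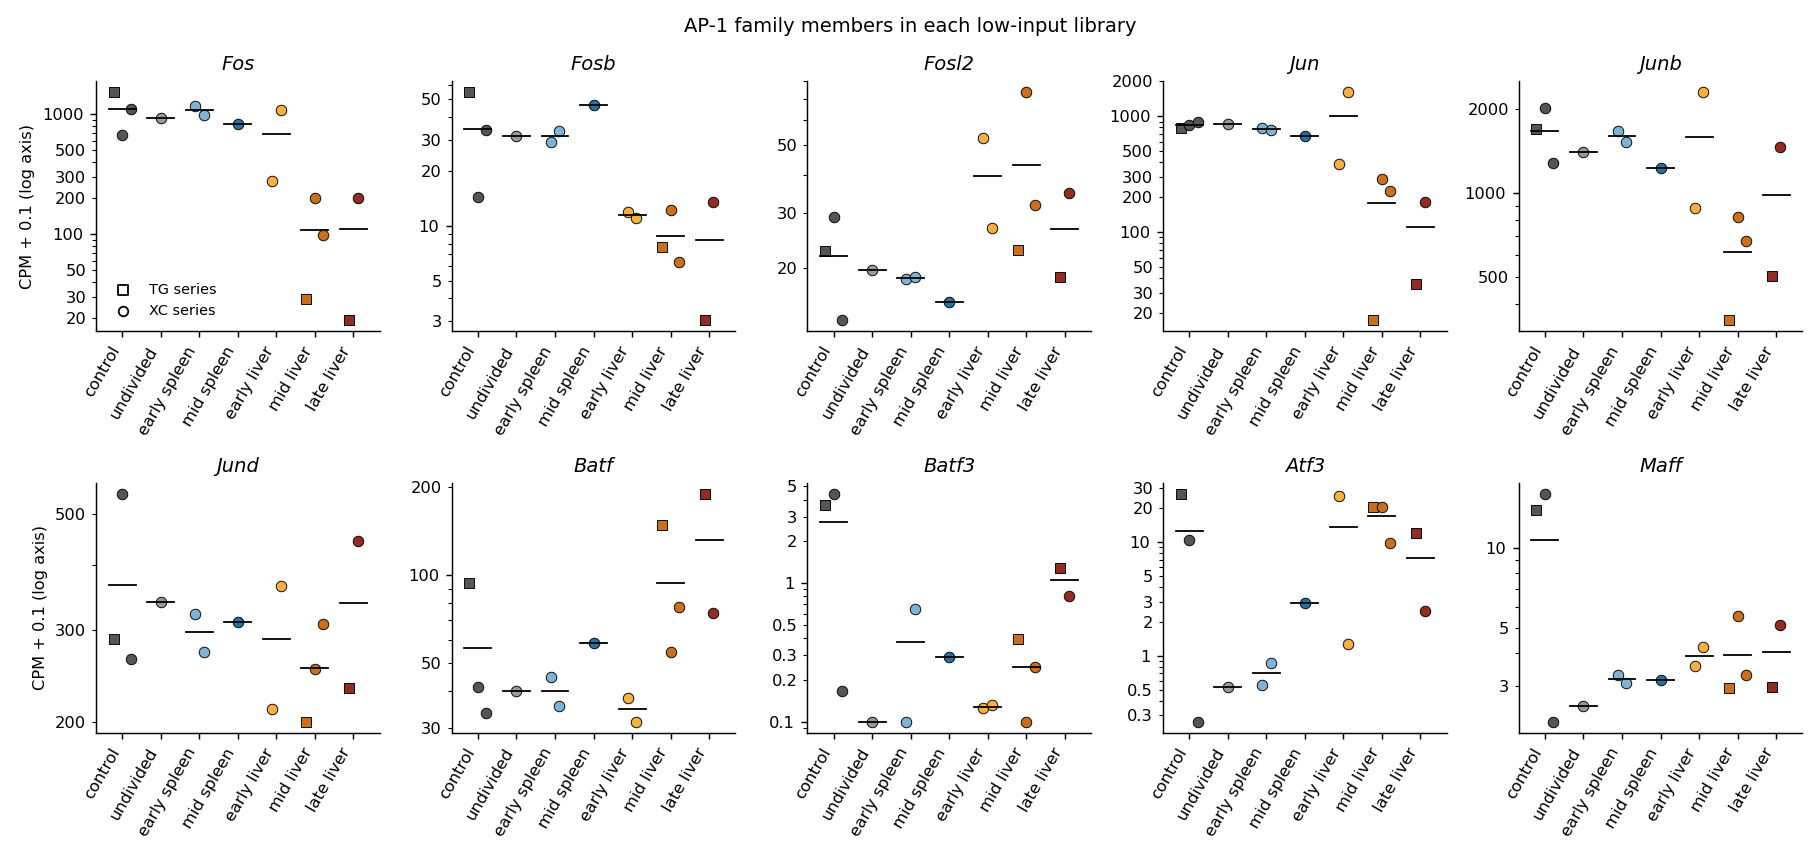
Level of each member (CPM + 0.1, log axis, each panel with its own range) in the 14 low-input libraries by group, with squares for the TG and circles for the XC series and a line at the group mean. Fos, Fosb and Jun in all 5 mid and late liver libraries lie below all 3 controls, and Batf in mid and late liver lies above the controls of the same series.

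Fos, the first-described member and a partner of Jun proteins, was at 1517, 676 and 1099 CPM in controls 1, 2 and 3. It was at 28.8, 198 and 97.6 CPM in mid liver 1, 2 and 3 and at 19.1 and 201 CPM in late liver 1 and 2. Every mid and late liver library was below every control, with the TG libraries the lowest. The group mean was 1098 ± 421 CPM in control (SD, n = 3) and 108 ± 85.1 CPM in mid liver (SD, n = 3), and late liver was 110 ± 128 CPM (SD, n = 2). Against control, Fos fell by 3.93 on the log2 scale in mid liver (SE 1.05, adjusted p = 0.0315) and fell by 3.91 in late liver (SE 1.22, adjusted p = 0.0410). Without control 1 these changes were -2.45 and -2.44. Within the TG series the control was 52.7-fold above mid liver and 79.3-fold above late liver, and within the XC series 6.01-fold and 4.42-fold.

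Fosb, a close relative of Fos, stood at 54.5, 14.4 and 33.97 CPM in the controls. Mid liver had 7.60, 12.2 and 6.21 CPM, and late liver had 2.94 and 13.5 CPM. The groups did not overlap, although control 2 exceeded late liver 2 by under 1 CPM. Taken alone, mid liver (log2 change -2.04, SE 0.67, adjusted p = 0.0530) and late liver (-2.13, SE 0.79, adjusted p = 0.0671) did not pass the threshold that their combination passed.

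Fosl2, which encodes FRA2, differed from the other Fos genes. Its level was 22.5, 29.1 and 13.5 CPM in control, 22.8, 73.6 and 31.8 CPM in mid liver, and 18.6 and 34.7 CPM in late liver. The ranges overlapped, and the log2 changes of 0.84 in mid liver (SE 0.47, adjusted p = 0.190) and 0.28 in late liver (SE 0.51, adjusted p = 0.682) did not pass. Among members, Fos, Fosb and Jun had all 5 mid and late liver libraries below all 3 controls, as did 18.1% of all genes tested. No member had all 5 above the controls, a pattern seen in 19.6% of genes.

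Jun, the main partner of Fos, varied least among the controls, at 794, 840 and 896 CPM. Mid liver had 17.4, 290 and 226 CPM, and late liver had 35.9 and 183 CPM. The highest of these liver values, 290 CPM, was far below the lowest control, 794 CPM. Jun fell by 2.998 on the log2 scale in mid liver (SE 0.90, adjusted p = 0.0421) and fell by 3.31 in late liver (SE 1.01, adjusted p = 0.0389). Without control 1 they were -1.96 and -1.78. An antisense gene, Junos, overlaps Jun, and the use of strand in counting is not given in the sources used here, so reads of the pair cannot be told apart.

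Junb, a weaker activator that pairs with Fos and BATF proteins, had the highest mean TPM of the members in every group, TPM being a level corrected for transcript length. Its level was 1693, 2019 and 1286 CPM in control, 351, 818 and 674 CPM in mid liver, and 504 and 1459 CPM in late liver. Mid liver lay below control and late liver overlapped it through library 2. Junb fell by 1.58 on the log2 scale in mid liver (SE 0.44, adjusted p = 0.0320), while its late liver change of -0.85 (SE 0.49, adjusted p = 0.189) did not pass. Late against mid liver gave 0.73 (SE 0.47, adjusted p = 0.920). The Prdx2 gene overlaps Junb on the opposite strand, with the same limit on its reads.

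Jund, the most evenly expressed Jun gene, was at 288, 546 and 264 CPM in control, 200, 253 and 307 CPM in mid liver, and 232 and 444 CPM in late liver. These ranges overlapped throughout. Its log2 change was -0.55 in mid liver (SE 0.30, adjusted p = 0.186) and -0.08 in late liver (SE 0.34, adjusted p = 0.863). Gm11175 lies antisense to it.

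Batf was at 93.6 CPM in control 1 of the TG series and at 41.2 and 33.7 CPM in the XC controls. Mid liver had 148 CPM in the TG series and 54.7 and 78.0 CPM in the XC series. Late liver had 189 and 73.9 CPM in the TG and XC series. Pooled over series the groups overlapped, because the TG control exceeded every XC liver library, whereas within each series every mid and late liver library was above every control. Batf rose by 0.75 on the log2 scale in mid liver (SE 0.19, adjusted p = 0.0243) and by 0.98 in late liver (SE 0.21, adjusted p = 0.0130). The ratio of CPM to control was 1.58 and 2.02 in mid and late liver of the TG series and 1.77 and 1.97 in the XC series. In TPM the TG rise was smaller, from 83.9 in control 1 to 101 in mid liver 1 and 105 in late liver 1. The XC libraries had 47.6 and 42.6 TPM in control, 59.4 and 80.1 in mid liver and 72.6 in late liver. TMM factors were 0.816 and 0.724 in mid liver 1 and late liver 1 and 1.029 in control 1, so the size of the TG rise depended on the scaling. Without the series term the change in mid and late liver together was 0.96 (SE 0.48, adjusted p = 0.150).

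Batf3, best known for the development of cross-presenting dendritic cells, was close to the limit of detection in most libraries. It was at 3.57 and 4.28 CPM in controls 1 and 2 and at 0.065 CPM in control 3. Liver libraries had 0 to 1.18 CPM, and early spleen, mid spleen and undivided libraries had 0 to 0.545 CPM. A count of 0 was found in the undivided library, early spleen 1 and mid liver 2, which allows up to 0.0995, 0.084 and 0.109 CPM (3 counts, counting error only). The libraries with high Batf3 were the 2 with high dendritic cell markers, where Cd74 stood at 939 and 913 CPM against 19.9 CPM in control 3. It did not reach the count minimum in the 11 control, undivided and liver libraries and was not tested there.

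Atf3, a stress-induced partner of Jun proteins, varied widely within groups. It was at 26.5, 10.4 and 0.162 CPM in control, 20.4, 20.5 and 9.83 CPM in mid liver, and 12.0 and 2.38 CPM in late liver. Log2 changes of 0.94 in mid liver (SE 1.36, adjusted p = 0.609) and -1.07 in late liver (SE 1.54, adjusted p = 0.598) did not pass. Maff, a small Maf protein, was at 13.8, 15.8 and 2.11 CPM in control and at 2.86 to 5.44 CPM in mid and late liver. Its log2 change was -1.48 in mid and late liver together (SE 0.58, adjusted p = 0.0630). With control 3 as the only control, Maff changed sign to 1.10 (SE 0.52, adjusted p = 0.250) and Atf3 moved to 5.36 (SE 2.27, adjusted p = 0.229), so both values rested on the day 0 controls that also held the markers of other cells.

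**Figure D2:**
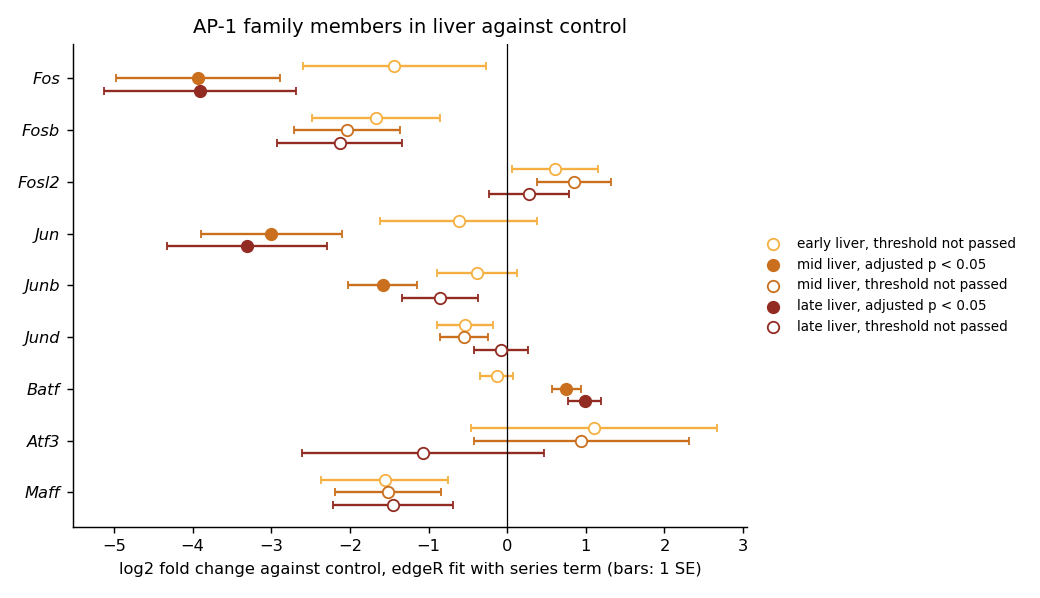
Log2 fold change against control with 1 SE for the 9 tested members in early, mid and late liver, from the edgeR fit with a series term. Filled points (adjusted p under 0.05) are Fos, Jun and Batf in mid and late liver and Junb in mid liver.

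Counted by time point, 4 of 9 members passed in mid liver (Batf higher, Fos, Jun and Junb lower), where 31.3% of all genes passed. In late liver 3 of 9 passed (Batf higher, Fos and Jun lower), where 37.5% of genes passed. These calls for single time points rested on few libraries, and so did those over all genes. Leaving out any 1 of the controls and mid liver libraries left 0 to 2 members and 0 to 3153 of all genes in mid liver. In late liver, leaving out control 1 left 0 members and 19 genes. Leaving out late liver 1 or late liver 2 leaves 1 late liver library, and the late liver calls did not hold in either fit. Between late and mid liver 0 of 9 passed and 0% of genes did, with 0 members at an unadjusted p under 0.05 by edgeR and 0 called by DESeq2. The XC libraries alone gave the same directions for the 5 members that changed, with log2 changes of -2.39 for Fos, -2.02 for Jun, -1.14 for Fosb, -0.68 for Junb and 0.88 for Batf. With 2 controls and 3 mid and late liver libraries none of these passed (edgeR, adjusted p 0.107 to 0.315), 3 members had an unadjusted p under 0.05, and 0 of all genes passed. With control 3 alone as reference 0 members and 0 genes passed either, 4 members had an unadjusted p under 0.05 by edgeR, and Fos and Batf had log2 changes of -2.76 and 1.05 (edgeR, adjusted p = 0.200 for both).

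Balance was taken as the log2 ratio of Batf CPM to the sum of Fos and Jun CPM, with 0.5 CPM added to each term, and is given as a description with no test. It was -4.62, -5.18 and -5.87 in the controls, -5.47 in undivided cells, -5.44 and -5.61 in early spleen and -4.67 in mid spleen. Per length, from TPM, Fos and Jun together were 9.99 to 27.6 times Batf in these spleen libraries. In mid liver the balance was 1.67, -3.15 and -2.05, and in late liver 1.77 and -2.37. All 5 of these values were above every control, and in the 2 TG libraries Batf exceeded Fos and Jun combined, which were 0.132 and 0.112 times Batf per length. In the 3 XC liver libraries Fos and Jun together were 3.87, 1.71 and 2.51 times Batf per length. The mean difference from control was 4.05 in mid liver and 4.93 in late liver, and with XC libraries only it was 2.93 and 3.16.

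Length-corrected levels gave the make-up of the family. TPM, which the quantification tool corrects for transcript length and depth, allows members to be compared with each other. In control the order by mean TPM was Junb (988), Fos (641), Jun (277), Jund (271) and Batf (58.03), with all others under 10. Fos and Jun did not overlap, nor did Jund and Batf or Batf and Fosb, whereas the other neighbours in this order did, such as Jun (211 to 336 TPM) and Jund (159.6 to 425 TPM). In mid liver the order was Junb (353), Jund (174), Batf (80.3), Fos (68.6) and Jun (58.3), where each of the 5 overlapped its neighbours. In late liver it was Junb (503), Jund (204), Batf (88.6), Fos (65.3) and Jun (31.7), again with overlap between neighbours. Within single libraries the order was clearer for the TG series, where Batf had 10.6 and 19.3 times the TPM of Fos in mid and late liver, and more mixed for the XC series, where the ratio was 0.45 and 1.25 in mid liver and 0.581 in late liver. In the controls it was 0.051 to 0.134.

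Summed over 8 genes (Fos, Fosb, Fosl2, Jun, Junb, Jund, Batf and Batf3), TPM fell from 1902 to 2494 in control to 344 to 1437 in mid and late liver. Batf made up 4.41% of this sum in control 1 and 1.91% and 1.80% in controls 2 and 3. Its share was 29.5% and 28.8% in mid and late liver of the TG series, and 5.78%, 9.26% and 5.06% in the XC libraries. The share of Fos went from 18.3% to 35.6% in control to 1.49% to 12.8% in mid and late liver. Jund had 8.39% to 17.0% of the sum in control and 19.4% to 26.7% in those liver libraries, although its own level did not pass the test. Junb held 38.1% to 50.7% in control and 39.2% to 59.0% in liver after day 7.

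**Figure D3:**
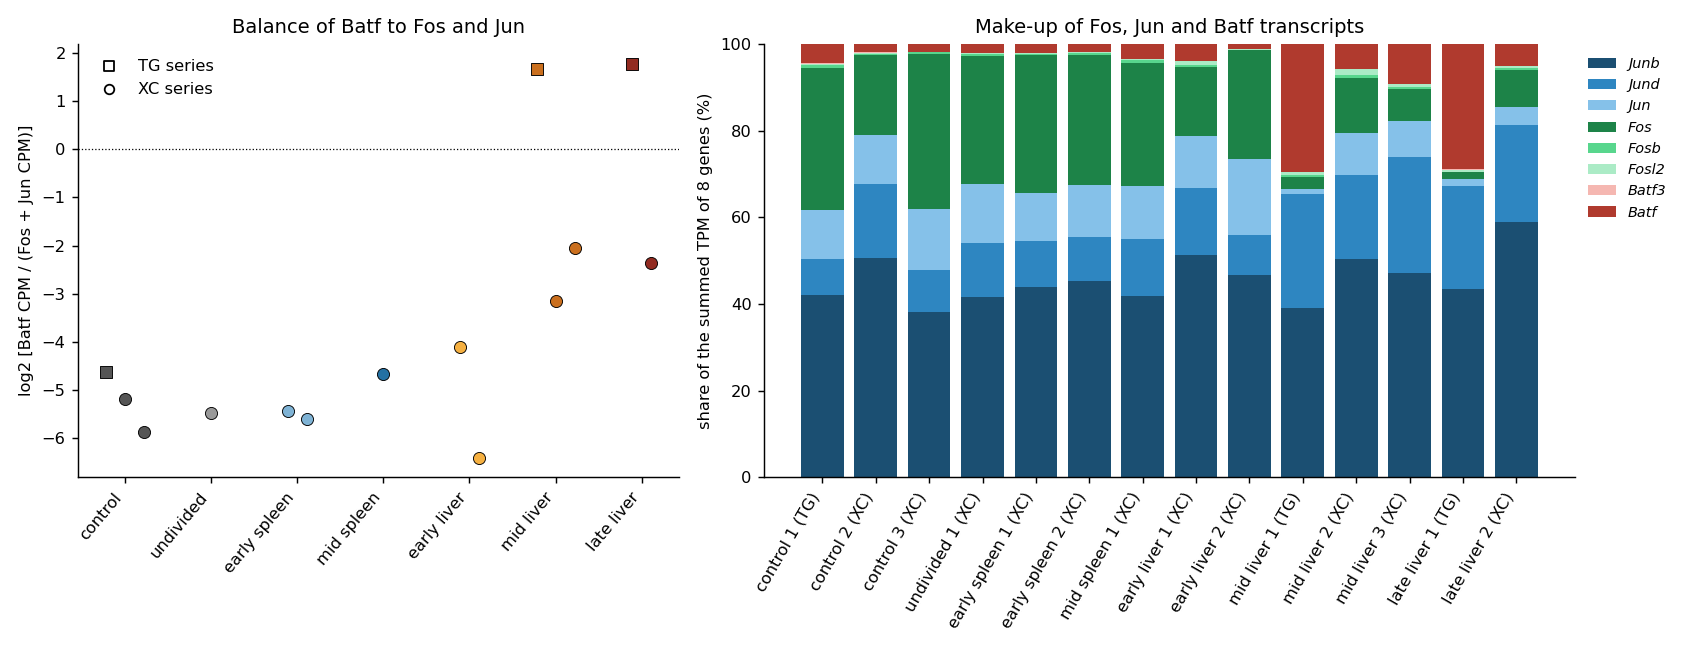
Left, log2 ratio of Batf CPM to Fos plus Jun CPM per low-input library (squares TG, circles XC, dotted line at equal levels). Right, percentage of the summed TPM of 8 genes held by each gene, as stacked bars from 0 to 100%, in which the Batf segment is widest in mid liver 1 and late liver 1 (29.5% and 28.8%).

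The early liver libraries, both from day 7 and the XC series, stood apart from each other. Early liver 1 had 276 CPM of Fos, 386 of Jun and 881 of Junb, each below all controls, whereas early liver 2 had 1092, 1606 and 2294 CPM. Batf was 37.9 and 31.4 CPM, within or below the control range. Atf3 was 25.8 CPM in library 1 and 1.16 CPM in library 2, and Fosl2 was 52.3 and 26.8 CPM. Fosb was below every control in both, at 11.9 and 11.003 CPM (log2 change -1.67, SE 0.81, adjusted p = 0.524). The balance was -4.11 and -6.40, a wider gap than that among the controls. The same libraries differed in activation genes, with Pdcd1 at 154 and 2.63 CPM and Irf4 at 172 and 6.43 CPM. Against control 0 of 9 members passed and 0% of genes, with 0 members at an unadjusted p under 0.05 by edgeR and 0 called by DESeq2. The count over all genes rested on library 2. Without it 1883 genes passed and still 0 members, of which Junb and Jund had an unadjusted p under 0.05 (log2 changes of -1.24 and -0.98, edgeR). DESeq2 called 350 genes with both libraries.

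Early and mid spleen libraries of leukemia-bearing mice had Fos within the control range and Jun below it, narrowly so in early spleen 1. Jun of the undivided library, also from spleen, was inside that range. Fos was at 1164 and 987 CPM in early spleen and 832 in mid spleen. Jun was at 790, 766 and 675 CPM, each under the lowest control (794 CPM). Batf was 44.7 and 35.5 CPM in early spleen and 58.7 CPM in mid spleen, the last of which was above both XC controls. Early spleen against control called 0 of 10 members and 0% of 15449 genes (1 member, Maff, at an unadjusted p under 0.05 in edgeR, 0 called by DESeq2). Mid spleen against control called 0 of 10 members and 0.00647% of genes (1 member, Batf, log2 change 0.63, SE 0.26, unadjusted p = 0.0350 in edgeR, 0 called by DESeq2). In undivided cells Fos, Jun and Batf were 935, 857 and 39.96 CPM, and 0 of 9 members and 0% of genes passed, with 0 at an unadjusted p under 0.05 by edgeR and 0 called by DESeq2. With 1 library each, mid spleen and undivided were assumed to vary like the other groups.

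Liver and spleen were also set against each other at matched times. In mid liver Fos was 28.8 to 198 CPM against 832 in mid spleen (log2 change -2.77, SE 1.10, adjusted p = 0.711), and Jun was 17.4 to 290 against 675 CPM (-1.81, SE 0.97, adjusted p = 0.711). Fosb was 6.21 to 12.2 against 46.5 CPM (-2.38, SE 0.79), and Fosl2 was 22.8 to 73.6 against 15.5 CPM (1.60, SE 0.68). Batf overlapped, at 54.7 to 148 CPM in mid liver against 58.7 CPM in mid spleen. Within the XC series the log2 ratio of mean Batf CPM to control was 0.824 in mid liver and 0.647 in mid spleen. Fos, Fosb and Fosl2 were at an unadjusted p under 0.05 by edgeR, but 0 of 10 members passed after adjustment, as did 0.00647% of genes, and DESeq2 called 0. At day 7, 0 of 10 members and 0% of genes passed between liver and spleen, with 1 member, Atf3, at an unadjusted p under 0.05 by edgeR and 0 called by DESeq2. Atf3 was 25.8 and 1.16 CPM in early liver against 0.448 and 0.764 CPM in early spleen.

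Of 21 tested relatives of the wider leucine zipper family, 5 rose and 6 fell in mid and late liver, with a median log2 change of -0.106, a share near that of all genes, of which 23.5% rose and 23.8% fell. Jdp2, a repressor that pairs with Jun proteins, rose by 3.77 (SE 0.89, adjusted p = 0.0129), from 0.325 to 2.17 CPM in control to 5.55 to 23.0 CPM. Nfil3 rose by 2.01 (SE 0.52, adjusted p = 0.0170) and Atf5 by 1.52 (SE 0.40, adjusted p = 0.0155). Bach1, a partner of small Maf proteins, fell by 1.68 (SE 0.26, adjusted p = 0.00613) and Mafk fell by 1.18 (SE 0.29, adjusted p = 0.0130). Mafk was at 158, 185 and 74.7 CPM in controls 1, 2 and 3, the first 2 being the day 0 libraries. Mid liver 2 and 3 (95.9 and 76.2 CPM) were above control 3. Fosl1, which encodes FRA1, was chosen after its values were seen. It was 0.030 to 0.325 CPM in control. Mid liver 1 to 3 had 22.4, 12.2 and 4.57 CPM, and late liver 1 and 2 had 5.71 and 0.454 CPM. The log2 change in both together was 5.12 (SE 1.85) and did not pass (edgeR, adjusted p = 0.0544). Mid liver alone passed (6.43, SE 1.90, adjusted p = 0.0405), and late liver alone did not (3.81, SE 2.11, adjusted p = 0.182).

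The MAP kinase route signals from the T cell receptor to Fos and Jun. Of its 20 tested genes, 6 rose and 5 fell, again near the 47.3% of all genes that passed, with a median of 0.037, and over all genes tested -0.054. Rasgrp1, the exchange factor that activates Ras below the receptor, fell by 1.22 (SE 0.22, adjusted p = 0.00642), from 207 to 364 CPM in control to 66.0 to 234.7 CPM. Braf fell by 0.93 (SE 0.23, adjusted p = 0.0121) and Mapk8, which encodes the Jun kinase JNK1, fell by 0.96 (SE 0.24, adjusted p = 0.0129). The serum response factor Srf rose by 0.88 (SE 0.23, adjusted p = 0.0147) and its cofactor Elk3 by 1.47 (SE 0.15, adjusted p = 0.00510), and the GTPase gene Hras rose by 0.68 (SE 0.19, adjusted p = 0.0181).

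Irf4, whose protein binds composite sites with BATF, rose by 5.64 on the log2 scale (SE 1.13, adjusted p = 0.00887). It was at 2.53, 1.47 and 4.74 CPM in control, 130.4, 225 and 162 CPM in mid liver, and 131 and 107 CPM in late liver, with no overlap. Irf8, the other partner, was at 93.9, 96.2 and 7.96 CPM in control and 149.7 to 289.6 CPM in mid and late liver (log2 change 1.75, SE 1.03, adjusted p = 0.191). Its 2 high controls were again the day 0 libraries.

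Of 13 tested genes listed as AP-1 targets in T cells, 11 rose and 1 fell in mid and late liver, with a median log2 change of 6.35, where 23.5% of all genes rose and 23.8% fell. The list was chosen with earlier results of these data known. The study had already reported Pdcd1, Ctla4 and Ifng among its upregulated genes, so the count is a description only. Il2 rose by 9.36 (SE 1.89, adjusted p = 0.00896), from 0 to 0.045 CPM in control to 0.596 to 68.7 CPM. Pdcd1, which encodes PD-1, rose by 8.24 (SE 1.45, adjusted p = 0.00714), to 235.4 to 975 CPM from at most 2.44 CPM in control. Csf2 rose by 7.62 (SE 1.51, adjusted p = 0.00822). For Il2 and Csf2 the size of the fitted change depends on the small count added to libraries at or near 0. Cd69, an early activation marker, fell by 1.05 (SE 0.36, adjusted p = 0.0416), and Havcr2 was the remaining gene that did not pass.

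Immediate-early and tissue dissociation genes, which like Fos and Jun respond to cell handling, moved in both directions. Of 21 tested, 8 fell and 3 rose, with a median of -0.655, where 23.8% of all genes fell and 23.5% rose. The phosphatase gene Dusp1 fell by 2.71 (SE 0.86, adjusted p = 0.0356), and Klf6 fell by 2.34 (SE 0.56, adjusted p = 0.0135) and Klf2 fell by 1.94 (SE 0.43, adjusted p = 0.0102). Egr1 rose by 1.38 (SE 0.45, adjusted p = 0.0370), from 58.9 to 131 CPM in control to 146 to 385 CPM. The chaperone genes Hspe1 and Hspa8 rose by 1.43 (SE 0.33, adjusted p = 0.0105) and 0.52 (SE 0.19, adjusted p = 0.0466). Dusp1 was 16.5 and 44.3 CPM in mid and late liver of the TG series, the libraries with the lowest Fos and Jun, and 146 to 349.6 CPM in the XC liver libraries after day 7. Controls 1, 2 and 3 had 843, 627 and 341 CPM of Dusp1, so late liver 2 (349.6 CPM) lay above control 3. The part of cell handling in the fall of Fos and Jun was not tested.

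**Figure D4:**
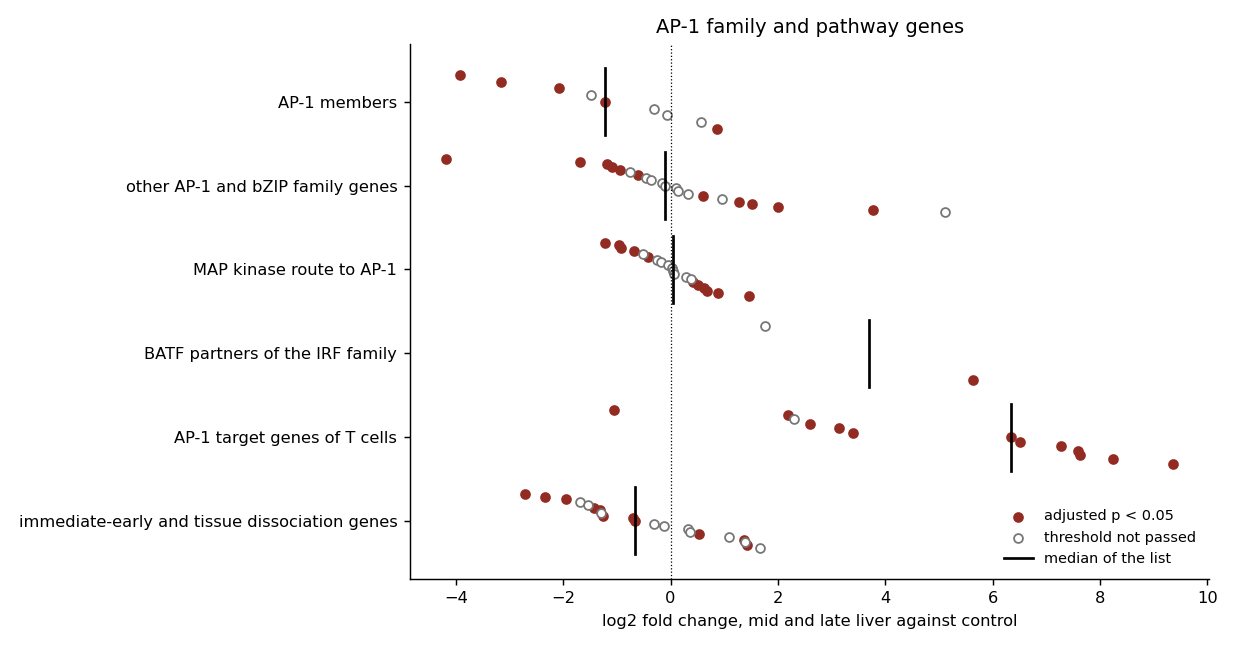
Log2 fold change in mid and late liver against control for each tested gene of 6 lists, filled where the adjusted p was under 0.05, with a bar at the list median. The target list lies mostly to the right (median 6.35) and the members mostly to the left (median -1.22).

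Across the 14 low-input libraries, log2 CPM of Fos and Jun had a Pearson r of 0.95, and Fos and Junb of 0.90. Batf had an r of -0.79 with Fos and -0.86 with Jun. In the 11 XC libraries these were 0.92, 0.76, -0.75 and -0.83. These are descriptions over libraries that share group, series and scaling. Among 5882 genes of at least 5 mean log2 CPM, the patterns most like Batf were those of S100a13 (r = 0.98), Itgb1bp1 (0.98), Ntan1 (0.97), H2afv (0.97) and Cuedc2 (0.97). Those most like Fos were Lpp (r = 0.98), Phip (0.98), Zeb1 (0.97), Jmjd1c (0.97) and Pik3r1 (0.97).

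Transcript shares within members differed between series and groups, as kallisto divided the reads. The retained-intron transcript of Batf held 9.87% to 13.3% of its counts in control and 1.10% to 3.36% in mid and late liver. With protein-coding transcripts only, Batf rose by 0.91 (SE 0.17, edgeR adjusted p = 0.00778). The non-coding Fos-202 held 1.57% to 3.80% of Fos counts in the TG low-input libraries and 10.5% to 15.6% in the XC libraries. For Fosl2 the retained-intron share ran from 0.91% in mid liver 1 to 50.1% in early liver 2, so its gene total mixes spliced and unspliced RNA to a varying degree.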

How the data were processed

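Low-input RNA-seq of sorted TCRTg101 cells gave 14 libraries (25 runs), and 1 oligo-dT library was kept apart. Per the labels, the authors used bcl2fastq and kallisto with GRCm38 (mm10), versions not given in the sources used here. The deposited values are kallisto estimated counts per transcript and TPM, which the authors' kallisto runs normalized for length and depth. Estimated counts were summed over runs and over the transcripts of each GENCODE vM21 gene (98.18% of transcripts matched, 98.96% to 99.25% of counts) and rounded. TPM of genes are means over runs weighted by counts.

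Groups were compared with edgeR 4.0.16 (R 4.3.3; TMM, robust quasi-likelihood, group plus title series, at least 10 counts in 6 libraries, Benjamini-Hochberg threshold 0.05), in a fit of 11 libraries (14600 genes) and, for spleen comparisons, of 14 (15449 genes). CPM used TMM factors of the 14-library fit. DESeq2 1.42.0, other scaling, filters, subsets and leaving out each library were tried. The code was tested on simulated data. Liver and spleen comparisons share controls. The members and lists were chosen with earlier results of these data known. Named genes were all members, at most 3 that rose and 3 that fell most among those past the threshold in each other list, and the 5 genes most correlated with Batf and with Fos. A gene that this rule selects is not reported here. Depth limits precision of low genes, and intervals for counts of 0 cover counting error only.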

Additional observations from a re-analysis of the deposited data

Results flagged for a closer look

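Fosb and Fosl2 differed in direction between liver and spleen when each library was set against the mean of the controls of its own series (log2 CPM, 0.5 CPM added). At day 7, Fosb was lower in both early liver libraries and higher in both early spleen libraries, a difference in means of -1.40, and Fosl2 went the opposite way, by 1.0. At days 13 and 14 every mid liver library lay below the mean of its controls for Fosb and above it for Fosl2, and the single mid spleen library the reverse, with differences of -2.79 and 1.23. Several of these steps lay within the spread of the controls: Fosl2 was 22.8 CPM in mid liver 1 against 22.5 CPM in its control, mid spleen Fosl2 (15.5 CPM) was above control 3 (13.5 CPM), and both genes in early spleen lay inside the range of the XC controls. The difference between organs was not tested on this scale. In the direct liver against spleen comparisons by edgeR, neither gene passed after adjustment at either time.

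Fosb, Fosl2 and Maff had higher levels in the oligo-dT control library than in any low-input control, at 439 CPM against at most 54.5 CPM, 73.5 CPM against at most 29.1 CPM, and 53.7 CPM against at most 15.8 CPM. That library entered no comparison, its scaling used its own total, and it has no replicate.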

How the results depend on the processing

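Counts of changed members depended on the settings. Without the series term, 0 members passed in mid liver, 0 in late liver and 3 in mid and late liver together. Of 14600 genes, 1385, 2693 and 4238 passed in these comparisons. With control 3, from day 18, as the only control, and with XC libraries only, 0 passed in each of these 3 comparisons. With the day 0 controls only, 2 members passed in mid liver, beside 2332 of all genes. Leaving out 1 library gave 0 to 2 members in mid liver and 0 to 5 in both together, beside 0 to 3153 and 6 to 6206 of all genes. Leaving out 1 control gave 0 to 4 members in late liver, beside 19 to 4191 genes. Without a count filter, all 10 members were tested, among 29482 genes in the first fit and 32768 in the spleen fit. Members passed in mid liver (8, beside 5708 genes), late liver (7, 6274), early liver (4, 1480) and undivided (2, 328). Late against mid liver gave 2 members (434 genes) and early spleen gave 2 (642). Early liver against early spleen gave 3 (984) and mid liver against mid spleen gave 5 (758). The cause was not tested. DESeq2, RLE scaling, the first run of each library, protein-coding transcripts, a single fit of all 14 libraries and a fit of only the groups compared moved no count of members past 1.5 times the reported one.

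Log2 changes that changed sign did so for members that had not passed in that comparison. With control 3 only they became 0.13 for Jund and 1.04 for Maff in mid liver, 0.0328 for Junb, 0.60 for Jund, 4.46 for Atf3 and 1.16 for Maff in late liver, and 0.37 for Jund, 5.36 for Atf3 and 1.10 for Maff in both together. With day 0 controls only Fosl2 in late liver was -0.0495, with XC libraries only Jund in late liver was 0.12 and Atf3 in both together 0.16, and with the first run of each library Atf3 was 0.087. Leaving out 1 library gave -0.0495 to 0.78 for Fosl2 and -0.32 to 0.19 for Jund in late liver, and -0.65 to 1.10 for Atf3 in both together.

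Changes that had passed kept their sign when 1 library was left out, with Fos at -4.67 to -2.45 and Jun at -3.57 to -1.96 in mid liver, Fos at -5.59 to -2.44 and Jun at -3.75 to -1.78 in late liver, and Fosb at -2.84 to -1.21, Junb at -1.52 to -0.71 and Batf at 0.77 to 0.93 in both together. The smallest sizes for Fos, Jun, Fosb and Junb came without control 1, and the smallest for Batf without mid liver 3.

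The balance difference from control moved as follows. With XC libraries only it was 0.057 in undivided cells, 0.0043 in early spleen, 0.27 in early liver, 2.93 in mid liver and 3.16 in late liver. With control 3 only it was 0.40, 0.35, 0.61, 4.69 and 5.57 in the same order, and 1.20 in mid spleen. From TPM it was 0.010 in early liver. Against the sum of all 6 Fos and Jun members it was 2.60 in mid and 2.76 in late liver. Leaving out 1 library gave -0.57 to 0.057 in undivided cells, -0.62 to 0.0043 in early spleen, -1.18 to 1.11 in early liver, 2.63 to 5.04 in mid liver and 2.85 to 7.00 in late liver.

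No paired analysis was possible because the labels give no replicate numbers and numbers here follow the order of the samples. Mid spleen and undivided had 1 library each, and depth limits Batf3, which had 0 to 7 counts in 8 of the 14 libraries.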
